A study of Mus musculus with 6 samples.

Results

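Genes of natural killer (NK) cells and other cytotoxic lymphocytes were examined in RNA sequencing libraries of B cells isolated from mouse lung. The 10 genes, taken by symbol from the 22481 genes of the deposited table, were the receptor genes Ncr1, Klrd1 and Klrk1, the cytotoxic granule genes Nkg7, Gzma, Gzmb and Prf1, the transcription factor genes Eomes and Gata3, and the chemokine gene Ccl5. All 10 were listed. The mutant mice were 5xFAD, which carry mutant human genes of familial Alzheimer's disease, driven by the neuron-directed Thy1 promoter, and their controls were wild type (WT). Both were on the C57BL/6 strain and 3 months old, with 3 libraries per genotype, and the labels record no treatment. Lung B cells were selected with magnetic beads (MACS) and frozen, and libraries were made from total RNA depleted of ribosomal RNA. The labels do not say whether each library came from a separate mouse, so p-values measure the spread between these libraries, which may be technical.

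NK cells kill infected or transformed cells without prior priming, and the lung holds many of them. Their surface receptors weigh activating ligands against MHC class I molecules on a target cell, and an activated killer cell releases perforin and granzymes from preformed granules. CD8 T cells use the same granule proteins. B cells do not belong to this programme, so the counts below describe how much of it was present in a fraction labelled as B cells.

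The fraction carried B cell transcripts in every library, and only traces of the 10 genes. All 15 genes of a B cell marker list, among them Cd79a and Ms4a1, were above 0 in each library. Their summed level was 1711, 1730 and 1533 FPKM (fragments scaled to transcript length and library size, the unit of the deposited table) in 5xFAD replicates 1, 2 and 3, and 1083, 751 and 778 FPKM in WT replicates 1, 2 and 3. These markers were higher in every 5xFAD library than in any WT library as a sum. By edgeR, 9 of the 15 were higher in 5xFAD at an unadjusted p under 0.05, against 8.43% of all tested genes. After adjustment 0 were called. Bank1, a B cell scaffold gene, averaged 55.6 ± 9.40 FPKM in 5xFAD and 17.4 ± 3.44 FPKM in WT (SD, n = 3 each), and its edgeR adjusted p of 0.0683 was the lowest of the list. The part of B cell content in the values below was not tested. The 10 NK and cytotoxic genes summed to 1.22%, 1.66% and 3.04% of the B cell marker sum in 5xFAD replicates 1 to 3, and to 4.02%, 2.83% and 1.97% in WT replicates 1 to 3. Cd74 alone made up much of that marker sum. It stood at 842, 866 and 1044 FPKM in 5xFAD and at 635, 382 and 395 FPKM in WT. The percentages thus depend largely on 1 gene and do not measure B cell content. Libraries were shallow, with 423160 to 466345 estimated counts in 5xFAD and 341461 to 402532 in WT once Lars2, a gene that held 37.5% to 45.7% of all counts, was set aside. Genes with at least 0.5 counts numbered 10511 to 11804 in the 5xFAD libraries and 7941 to 10399 in the WT libraries.

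The data on these genes are therefore small whole numbers of fragments. In such bulk samples, fewer cells of a type and less RNA per cell cannot be told apart. Deposited counts were multiples of a step close to 1 in each library, and dividing by that step gave numbers of fragments that were whole within 0.05 for all 36 member values above 0. Of the 60 values (10 genes in 6 libraries), 24 were at 0 and 16 were 1 to 3 fragments. Only 8 exceeded 10 fragments. The 5 values of at least 20 fragments were Ccl5 in 5xFAD replicate 3 and in WT replicate 1, Nkg7 in WT replicate 1, Gata3 in WT replicate 2 and Ncr1 in WT replicate 3. Intervals below are exact Poisson intervals at 95%, and they cover counting error only, since sequenced fragments are not independent molecules.

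**Figure D1:**
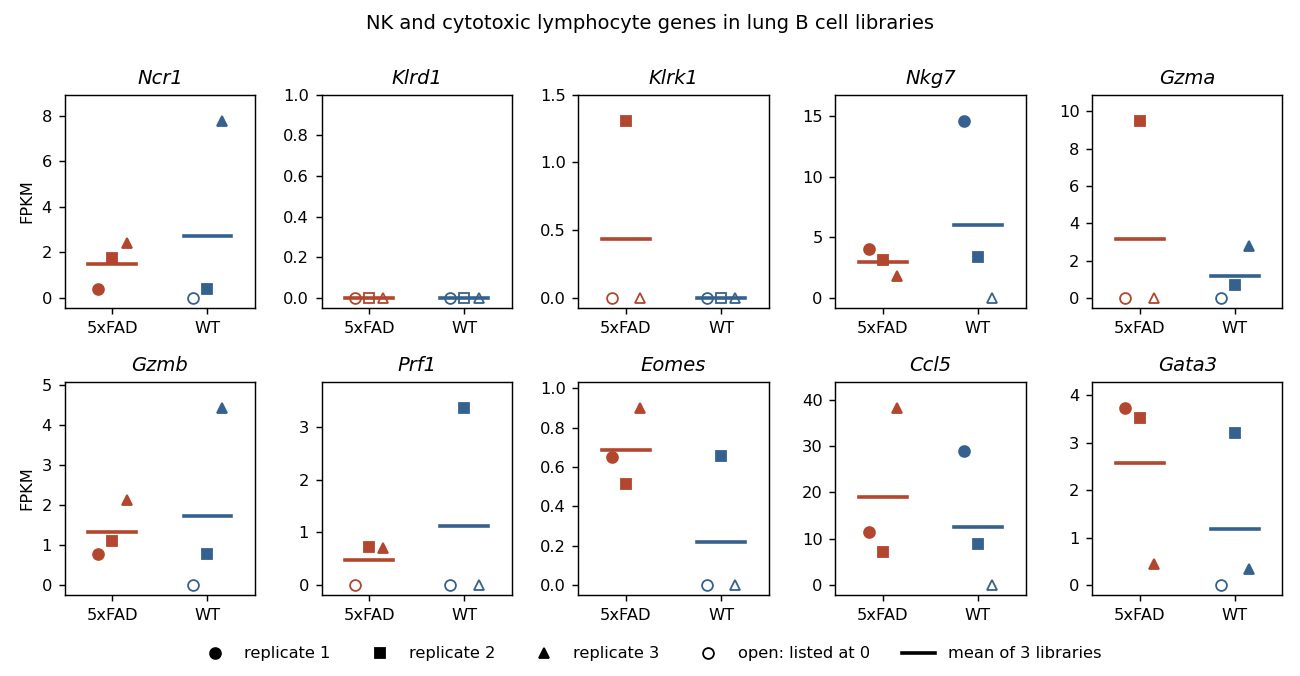
FPKM of each of the 10 genes (vertical axis, a separate linear scale per gene) in 3 5xFAD and 3 WT libraries. Points are single libraries, open points are listed at 0 and bars are means. The genotypes overlap for every gene, and the highest WT point belongs to replicate 1 for Nkg7 and Ccl5, replicate 2 for Prf1, Eomes and Gata3, and replicate 3 for Ncr1, Gzma and Gzmb.

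Of the receptor genes, 1 was present in most libraries, 1 in a single library and 1 in none. Ncr1 encodes NKp46, an activating receptor that is among the most specific markers of NK cells (chromosome 7, 4337724 to 4345164, GRCm38). Ncr1 had 1, 5 and 7 fragments in 5xFAD replicates 1 to 3, which is 0.372, 1.76 and 2.39 FPKM, and 0, 1 and 20 fragments in WT replicates 1 to 3, which is 0, 0.373 and 7.76 FPKM. WT replicates thus held both the lowest and the highest value, and the 5xFAD values lay between these. The interval was 12.2 to 30.9 fragments for WT replicate 3, while a count of 0, as in WT replicate 1, is taken here to allow up to 3 counts, so these replicates of 1 genotype differed beyond counting error. The Ncr1 log2 fold change of 5xFAD over WT was -1.15 with a standard error (SE) of 1.68, and the adjusted p from edgeR (Benjamini-Hochberg over all tested genes) was 0.853. Without WT replicate 3 it was 2.53 (edgeR adjusted p = 0.681).

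Klrk1 encodes NKG2D, an activating receptor for stress-induced MHC-like ligands (chromosome 6, 129610323 to 129623864). Klrk1 had 0, 3 and 0 fragments in 5xFAD replicates 1 to 3 and 0 in every WT library. Klrd1 encodes CD94, which pairs with NKG2 chains to read the MHC class I molecule Qa-1 (chromosome 6, 129591782 to 129598775). It was listed at 0 in all 6 libraries. The limit of 3 counts per library is 6.43 to 7.09 CPM (counts scaled to the library total, Lars2 set aside) in the 5xFAD libraries and 7.45 to 8.79 CPM in the WT libraries. A listed 0 was rare for well-covered genes: of genes with at least 30 counts in each of the other 5 libraries, 8 of 1786 were at 0 in WT replicate 3, 1 of 1654 in WT replicate 1 and 0 in the other libraries.

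Other NK receptor genes were as sparse. Of 32 listed genes for NK receptors and their adaptors, 10 were at 0 in all 6 libraries, among them Klre1, Cd160 and 5 genes of the Klra (Ly49) family. In that list 8 genes reached the average of 1 FPKM needed for testing, and edgeR called 0 of them, with 0 at an unadjusted p under 0.05. Klrb1c, which encodes NK1.1, the classical NK marker of C57BL/6 mice, had 0, 1.87 and 0 FPKM in 5xFAD replicates 1 to 3 and 0, 1.19 and 5.36 FPKM in WT replicates 1 to 3. Its highest value fell in WT replicate 3, the library with the highest Ncr1. Klrc1, which encodes the inhibitory partner chain NKG2A of CD94 and was chosen after its values were seen, had 12.3, 1.34 and 1.99 FPKM in 5xFAD and 1.59, 0.536 and 0 FPKM in WT. It was detected although Klrd1 was not, and its log2 fold change was 2.78 (SE 1.53; adjusted p = 0.491, edgeR), or 0.20 without 5xFAD replicate 1. Reads from close copies in the Klra and Klrc families can be divided between rows, so single values there are uncertain. The 2 most abundant genes of the list were adaptors that myeloid cells share. Tyrobp, which encodes DAP12, had 16.4, 22.0 and 39.6 FPKM in 5xFAD and 17.4, 7.01 and 6.12 FPKM in WT (edgeR adjusted p = 0.733). Fcer1g, the Fc receptor gamma chain, had 8.33, 5.24 and 18.7 FPKM in 5xFAD and 6.75, 1.85 and 3.88 FPKM in WT (edgeR adjusted p = 0.710). Both were highest in 5xFAD replicate 3, and both overlapped between genotypes.

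The 4 granule genes did not share a pattern over libraries. Nkg7 encodes a granule membrane protein needed for degranulation (chromosome 7, 43437073 to 43438246). It had 6, 5 and 3 fragments in 5xFAD replicates 1 to 3, at 4.01, 3.16 and 1.84 FPKM, and 22, 5 and 0 fragments in WT replicates 1 to 3, at 14.6, 3.35 and 0 FPKM. The 5xFAD libraries were close together and the WT libraries spanned the whole range. Its log2 fold change was -0.94 (SE 1.58; adjusted p = 0.877, edgeR), and 0.78 without WT replicate 1.

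Gzmb encodes granzyme B, the protease that cleaves after aspartate and triggers apoptosis in the target cell (chromosome 14, 56258856 to 56262260). It had 2, 3 and 6 fragments in 5xFAD replicates 1 to 3 (0.770, 1.09 and 2.12 FPKM) and 0, 2 and 11 fragments in WT replicates 1 to 3 (0, 0.773 and 4.42 FPKM). The 6 libraries stood in the same order for Gzmb as for Ncr1, with WT replicate 3 highest and WT replicate 1 lowest. Its log2 fold change was -0.47 (SE 1.66; adjusted p = 0.950, edgeR), and 1.57 without WT replicate 3.

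Gzma encodes granzyme A, a tryptase-like granule protease (chromosome 13, 113093825 to 113100979). It had 0, 15 and 0 fragments in 5xFAD replicates 1 to 3 (0, 9.47 and 0 FPKM) and 0, 1 and 4 fragments in WT replicates 1 to 3 (0, 0.670 and 2.80 FPKM). A single library held its highest value, and 3 libraries were at 0. Its log2 fold change was 1.06 (SE 1.83; adjusted p = 0.882, edgeR), and -3.94 without 5xFAD replicate 2. Prf1 encodes perforin, which forms the pores through which granzymes enter (chromosome 10, 61297836 to 61304263). It had 0, 3 and 3 fragments in 5xFAD replicates 1 to 3 and 0, 13 and 0 fragments in WT replicates 1 to 3, and its mean of 0.799 FPKM was too low for testing.

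In a longer list of 25 genes for granules and their release, 6 were at 0 in all libraries, namely Gzmm and the granzyme genes Gzmc to Gzmg. The 14 tested genes gave 0 calls by edgeR, with 0 at an unadjusted p under 0.05. Its most abundant genes are not confined to killer cells. Srgn, the granule proteoglycan serglycin, averaged 47.5 ± 17.1 FPKM in 5xFAD and 57.3 ± 25.7 FPKM in WT (SD, n = 3 each; edgeR adjusted p = 0.901), and its locus also holds 17 other listed genes, so its value is uncertain. Stxbp2, a syntaxin-binding protein of granule fusion, had 6.06, 20.4 and 19.1 FPKM in 5xFAD and 35.4, 29.6 and 126 FPKM in WT. The Stxbp2 genotypes did not overlap in FPKM, as for 17.4% of all tested genes, but they did in fragments, at 16, 43 and 44 in 5xFAD and 77, 34 and 36 in WT. Its log2 fold change was -0.74 (SE 0.67; adjusted p = 0.732, edgeR).

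Sequence upstream of the start sites is shown for 4 of these genes because their highest values fell in different libraries: Ncr1 and Gzmb in WT replicate 3, Nkg7 in WT replicate 1 and Prf1 in WT replicate 2. RefSeq windows (GRCm38.p6) were found for 8 of the 10 genes. Each line gives 250 bases that end at the start site, read 5′ to 3′ on the strand of the gene, and capitals mark the letters TGTGGT on either strand, the core bound by RUNX factors. The windows are chr7:4337465-4337714 on the plus strand (the more upstream of its 2 listed start sites), chr14:56262335-56262584 on the minus strand, chr7:43436888-43437137 on the plus strand and chr10:61297586-61297835 on the plus strand.
Ncr1: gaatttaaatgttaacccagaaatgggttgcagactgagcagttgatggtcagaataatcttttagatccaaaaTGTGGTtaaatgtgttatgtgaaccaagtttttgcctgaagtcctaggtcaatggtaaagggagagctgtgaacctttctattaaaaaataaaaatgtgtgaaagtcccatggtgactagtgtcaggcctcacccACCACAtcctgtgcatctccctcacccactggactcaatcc
Gzmb: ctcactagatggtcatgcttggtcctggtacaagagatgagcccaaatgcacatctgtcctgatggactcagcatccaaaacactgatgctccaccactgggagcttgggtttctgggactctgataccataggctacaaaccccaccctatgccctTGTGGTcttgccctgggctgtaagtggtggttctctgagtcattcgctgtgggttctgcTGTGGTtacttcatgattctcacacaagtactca
Nkg7: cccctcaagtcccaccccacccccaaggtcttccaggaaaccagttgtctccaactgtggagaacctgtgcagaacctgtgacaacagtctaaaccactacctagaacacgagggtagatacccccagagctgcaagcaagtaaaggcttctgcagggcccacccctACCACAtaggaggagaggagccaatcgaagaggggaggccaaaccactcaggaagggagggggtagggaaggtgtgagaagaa
Prf1: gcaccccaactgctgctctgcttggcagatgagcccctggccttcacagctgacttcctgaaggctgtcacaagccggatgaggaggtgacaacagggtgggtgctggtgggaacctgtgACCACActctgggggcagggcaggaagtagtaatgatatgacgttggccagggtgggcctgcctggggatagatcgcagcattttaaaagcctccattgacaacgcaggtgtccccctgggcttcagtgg
The RUNX letters stood in 6 of the 8 windows (Ncr1, Klrk1, Nkg7, Gzma, Gzmb and Prf1, not Eomes or Gata3), against 14.0% of all 32851 windows of this length. The first base of the motif lay 176 and 41 bases upstream in Ncr1, 93 and 34 in Gzmb, 83 in Nkg7, 130 in Prf1, 50 in Gzma and 129 in Klrk1. Of 4 other motifs searched on both strands, GGTGTGA (T-box) was in the Nkg7 window alone, against 3.33% of all windows. The ETS letters AGGAAG were in the Nkg7 and Prf1 windows, against 29.5% of all. The AP-1 letters TGANTCA were in the Gzmb window, against 6.75% of all. The letters AGATAA, read by factors of the Gata3 family, were in none of the 8, against 9.99% of all. No match overlapped another marked motif in the windows shown. A match describes letters and is not a site shown to be bound.

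Both transcription factors were weak. Eomes, a T-box factor of NK cell maturation and CD8 T cell memory (chromosome 9, 118478212 to 118486132), had 2, 3 and 3 fragments in 5xFAD replicates 1 to 3 and 0, 2 and 0 in WT replicates 1 to 3. It was above 0 in every 5xFAD library and in 1 WT library, and its mean of 0.453 FPKM was too low for testing. Its paralog Tbx21, which encodes T-bet, showed a similar form, with 1.46, 1.39 and 0.961 FPKM in 5xFAD replicates 1 to 3 and 0.829, 0.210 and 0 FPKM in WT replicates 1 to 3. The Tbx21 genotypes did not overlap, as for 17.4% of all tested genes, but fragments were few, at 7, 7 and 5 in 5xFAD and 4, 1 and 0 in WT. Tbx21 too was below the minimum for testing.

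Gata3, a factor of T cells and group 2 innate lymphoid cells (chromosome 2, 9857078 to 9890034), pointed opposite ways in the authors' units. Gata3 had 7, 7 and 3 fragments in 5xFAD replicates 1 to 3 and 0, 20 and 2 in WT replicates 1 to 3, a log2 fold change of -0.46 (SE 1.59; adjusted p = 0.949, edgeR). In FPKM it stood at 3.73, 3.53 and 0.440 in 5xFAD and at 0, 3.21 and 0.333 in WT, and the 5xFAD mean of log2(FPKM + 1) was higher by 0.82. A single Gata3 count was worth 0.53 FPKM in 5xFAD replicates 1 and 2 and 0.16 FPKM in 5xFAD replicate 3 and WT replicates 2 and 3. For this gene, the scaling of counts to FPKM thus differed between libraries. The locus also holds 2 other listed genes, both at 0 counts, and its summed counts gave the same fold change. Without WT replicate 2 the fold change was 2.15. Of 11 genes listed for group 2 innate lymphoid cells, 7 were at 0 in all 6 libraries, among them Il5, Il13 and Il17rb. Hs3st1 of that list had 40, 20 and 24 fragments in 5xFAD and 48, 14 and 5 fragments in WT. Rora, a nuclear receptor gene of the list, had 0.401, 2.31 and 0.186 FPKM in 5xFAD and 14.96, 2.01 and 1.88 FPKM in WT. Both were highest in WT replicate 1, and both overlapped between genotypes.

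Among 19 lymphoid transcription factor genes, 13 were tested and edgeR called 0, with 1 at an unadjusted p under 0.05. This was Ikzf3, which encodes Aiolos and is abundant in B cells as well as NK cells, at 103, 96.7 and 45.7 FPKM in 5xFAD and 37.9, 15.2 and 21.2 FPKM in WT. Every 5xFAD library exceeded every WT library, although in CPM 5xFAD replicate 3 and WT replicate 1 were nearly level, at 593 and 592. The log2 fold change was 1.28 (SE 0.37; adjusted p = 0.213, edgeR, or 0.0316 without WT replicate 1). The 2 most abundant genes of the list differed less. Ets1 averaged 97.4 ± 30.9 FPKM in 5xFAD and 79.6 ± 18.4 FPKM in WT (SD, n = 3 each; edgeR adjusted p = 0.885). Klf2 averaged 60.4 ± 7.07 FPKM in 5xFAD and 73.1 ± 36.7 FPKM in WT (SD, n = 3 each; edgeR adjusted p = 0.709). Runx3, the RUNX factor of NK and CD8 T cells, was chosen after its values were seen. It had 61.6, 12.2 and 11.0 FPKM in 5xFAD and 3.45, 5.64 and 9.27 FPKM in WT, without overlap, as for 17.4% of all tested genes. In fragments the Runx3 genotypes did not overlap either, at 67, 51 and 64 in 5xFAD and 25, 38 and 31 in WT. 5xFAD replicates 1 and 3 were thus close in fragments but far apart in FPKM, so the scaling of Runx3 counts to FPKM differed between libraries. The log2 fold change of Runx3 on counts was 0.77 (SE 0.62; adjusted p = 0.692, edgeR).

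Ccl5 was the most abundant of the 10 genes on the length-scaled unit. It encodes the chemokine RANTES, which memory CD8 T cells and NK cells store (chromosome 11, 83525778 to 83530518). Ccl5 had 9, 6 and 33 fragments in 5xFAD replicates 1 to 3 (11.4, 7.15 and 38.2 FPKM) and 23, 7 and 0 fragments in WT replicates 1 to 3 (28.9, 8.85 and 0 FPKM). The highest value was a 5xFAD library, the next a WT library, and a WT library was at 0. Intervals of 22.7 to 46.3 fragments for 5xFAD replicate 3 and 2.20 to 13.1 for 5xFAD replicate 2 did not meet. The log2 fold change was 0.54 (SE 1.33; adjusted p = 0.926, edgeR), and -0.49 without 5xFAD replicate 3.

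Related chemokine genes were also uneven. Xcl1, the lymphotactin gene of NK and CD8 T cells, had 0, 1.22 and 0 FPKM in 5xFAD and 27.0, 3.88 and 0 FPKM in WT. It was lower in 5xFAD at an unadjusted p under 0.05 (log2 fold change -4.23, SE 2.02; adjusted p = 0.399, edgeR), with 21 of its 24 WT fragments in replicate 1. Ccl3, which encodes MIP-1 alpha, had 4.73, 0.745 and 9.40 FPKM in 5xFAD and 12.5, 7.11 and 0 FPKM in WT (edgeR adjusted p = 0.955). Its 3 highest values, in WT replicate 1, 5xFAD replicate 3 and WT replicate 2, came from both genotypes. Tnf and Lta, a pair of inflammatory cytokine genes, were at 0 in every WT library and at 1.06 to 3.42 FPKM and 0 to 1.09 FPKM in 5xFAD. Fragments in 5xFAD replicates 1 to 3 were few, at 3, 3 and 10 for Tnf and 2, 0 and 3 for Lta. Both were below the minimum for testing and fell outside the naming rule given below. Presence in every 5xFAD library and in no WT library, as for Tnf, held for 4.27% of all detected genes. Ifng, the signature cytokine of activated NK cells, was at 0 in all 6 libraries, as were Csf2, Il5, Il13 and Areg. Of the 11 cytokine and chemokine genes, 3 were tested and 0 were called, with 1 at an unadjusted p under 0.05.

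**Figure D2:**
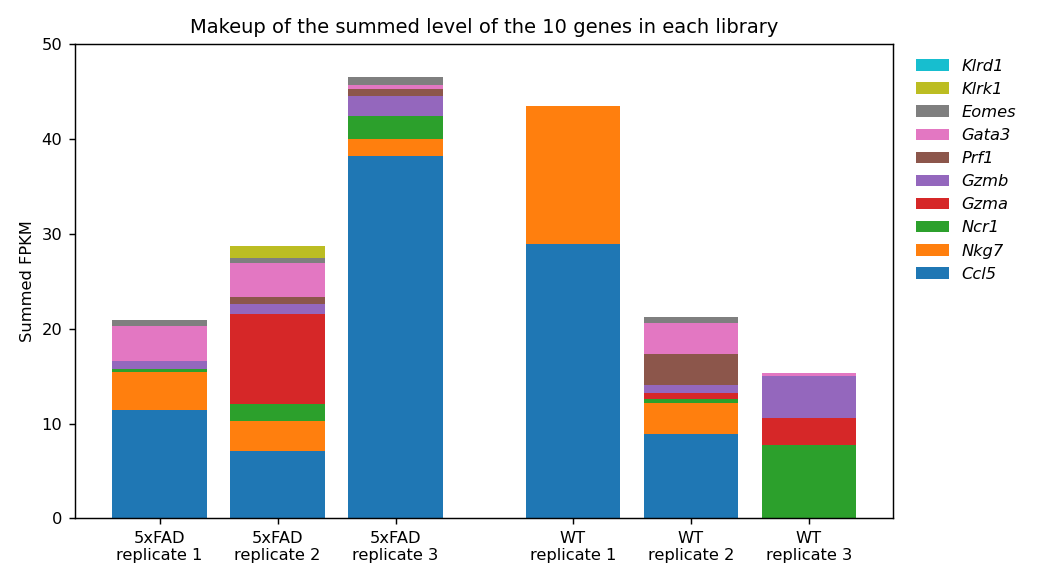
Summed FPKM of the 10 genes in each library (vertical axis), with 3 5xFAD libraries on the left and 3 WT libraries on the right and segments coloured by gene. Ccl5 makes up 82.0% of the sum in 5xFAD replicate 3 and 0% in WT replicate 3, and WT replicate 1 holds only Ccl5 and Nkg7.

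The total of the 10 genes overlapped between genotypes. In CPM without Lars2, the fragments of the 10 genes came to 62.1, 101 and 126 in 5xFAD replicates 1 to 3 (Wilson 95% intervals 42.7 to 90.4, 76.9 to 134 and 97.3 to 163). They came to 111, 132 and 113 in WT replicates 1 to 3 (intervals 82.6 to 148, 100.1 to 173 and 81.7 to 155). The means of 96.4 ± 32.1 CPM in 5xFAD and 118 ± 11.6 CPM in WT (SD, n = 3 each) were closer than the spread of the 5xFAD libraries. In summed FPKM the order of the means was turned, at 32.1 ± 13.1 in 5xFAD and 26.7 ± 14.9 in WT.

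The makeup changed from library to library. In 5xFAD replicates 1 to 3, 6, 9 and 7 of the 10 genes were above 0, and in WT replicates 1 to 3, 2, 8 and 4 were. WT replicate 1 had only Nkg7 and Ccl5, and WT replicate 3 had Ncr1, Gzma, Gzmb and Gata3 but neither of those. None of the 10 genes was above 0 in all 6 libraries.

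Across the 6 libraries the difference between genotypes passed the test for none of the genes. The edgeR quasi-likelihood test covered the 9651 genes that averaged 1 FPKM or more. At an adjusted p under 0.05 it called 11 of them (0.114%), 10 higher (0.104%) and 1 lower (0.0104%) in 5xFAD, and 12.0% had an unadjusted p under 0.05. Of the 10 genes, 6 reached this minimum. Among these 6, edgeR called 0, with 0 at an unadjusted p under 0.05, and DESeq2 called 0 of the 4 for which it gave an adjusted p (not Gzma or Gzmb). Limma called 0 genes of the whole table. Adjusted p-values ran from 0.853 to 0.950. In none of the 10 genes were the genotypes without overlap, against 17.4% of all tested genes. The shift in mean log2(FPKM + 1) from WT, taken as 5xFAD minus WT, was positive for 7 of the 10, negative for Nkg7 and Prf1 and 0 for Klrd1. Its median was 0.17 over the 10 genes, beside 0.24 over all tested genes, of which 60.2% were positive. The 10 include 4 genes below the testing minimum. Of all genes above 0 in at least 1 library, tested or not, 63.4% were positive. Standard errors of 1.33 to 1.83 on the log2 scale are large beside the differences themselves.

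**Figure D3:**
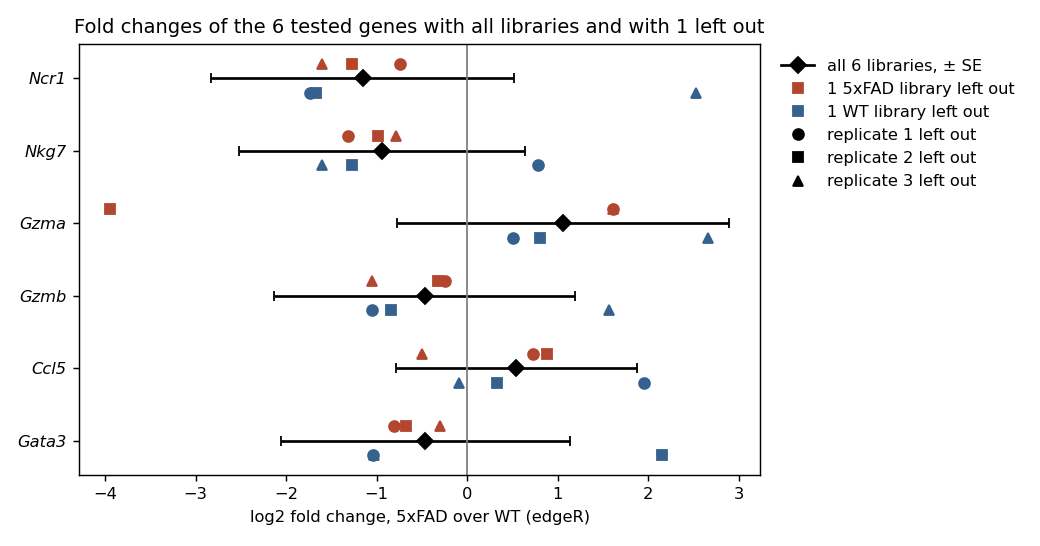
Log2 fold changes of 5xFAD over WT (horizontal axis) for the 6 tested genes, with all libraries (black, ± SE) and with each single library left out (coloured). For every gene at least 1 left-out library moves the value across 0, such as WT replicate 3 for Ncr1 and 5xFAD replicate 2 for Gzma.

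T cell markers moved between libraries too. The 17 T cell markers summed to 23.4, 33.4 and 53.4 FPKM in 5xFAD replicates 1 to 3 and to 53.8, 23.8 and 4.60 FPKM in WT replicates 1 to 3, with 10 to 15 of them above 0 in each library other than WT replicate 3, where 7 were. The libraries with the highest T cell sums, WT replicate 1 and 5xFAD replicate 3, were also the libraries with the highest Ccl5, and WT replicate 3 was lowest for both. The part of T cells in the Ccl5 values was not tested. Single T cell genes disagreed about the genotypes. Cd3e was at 2.66, 2.87 and 2.09 FPKM in 5xFAD and at 0, 3.05 and 0.396 FPKM in WT. Cd3d was at 0 in every 5xFAD library and at 4.54, 0.835 and 0 FPKM in WT. The kinase gene Lck had 10.7, 13.1 and 21.0 FPKM in 5xFAD and 0.865, 3.06 and 1.11 FPKM in WT (log2 fold change 2.24, SE 1.19; adjusted p = 0.469, edgeR). Its genotypes did not overlap, as for 17.4% of all tested genes. In fragments they did not overlap either, at 42, 20 and 19 in 5xFAD and 3, 12 and 1 in WT. For Lck, 5xFAD replicate 3 was highest in FPKM but lowest of the 5xFAD libraries in fragments. The scaling of Lck counts to FPKM thus differed between libraries. Of 12 tested T cell markers edgeR called 0, with 1, Cd3g, at an unadjusted p under 0.05. Cd3g had 0, 5.28 and 1.02 FPKM in 5xFAD and 0 in every WT library (edgeR adjusted p = 0.399).

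**Figure D4:**
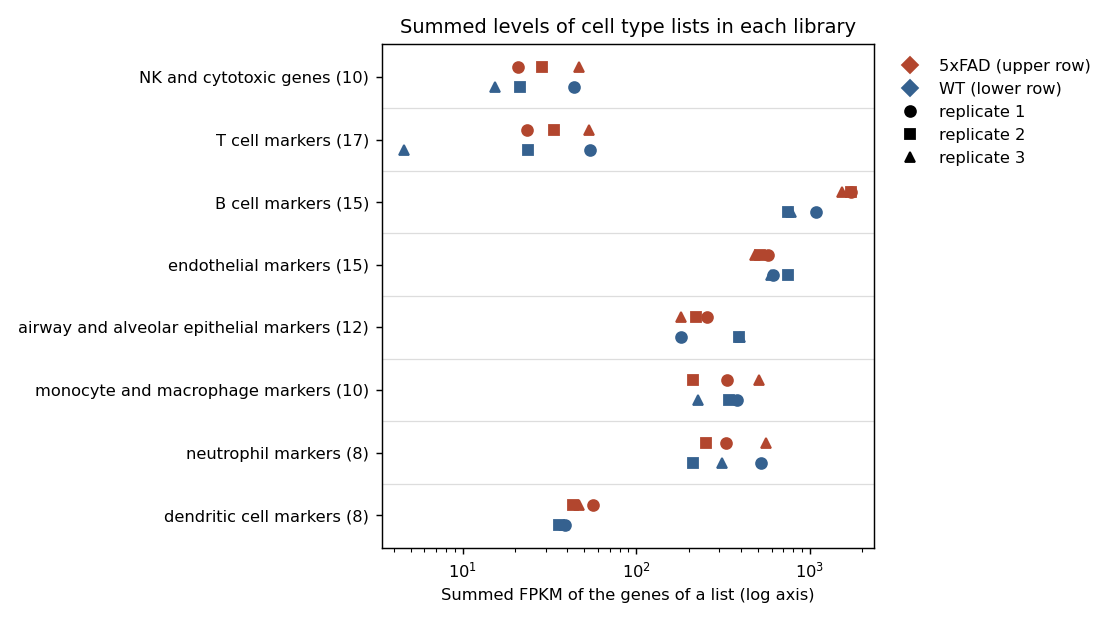
Summed FPKM of cell type lists (horizontal log axis) in each library, 5xFAD above WT within each list; numbers in brackets are genes per list. The NK and cytotoxic sum stays at or under 46.6 FPKM and lies below the B cell, endothelial, epithelial, monocyte and neutrophil sums in every library.

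Markers of several other lung cell types summed to higher levels than the cytotoxic genes. Endothelial markers summed to 482 to 572 FPKM in 5xFAD and 592 to 743 FPKM in WT, with all 15 above 0 in every library other than WT replicate 3. Monocyte and macrophage markers summed to 212 to 506 FPKM in 5xFAD and 228 to 380 FPKM in WT. Neutrophil markers summed to 253 to 556 FPKM in 5xFAD and 213 to 519 FPKM in WT, although Ly6g was at 0. Lyz2 made up most of the monocyte and macrophage sum, and S100a8 and S100a9 most of the neutrophil sum. These sums thus rest on few genes and do not measure cell content. Sums of 2 other lists were nearer to that of the 10 genes, which ran from 20.9 to 46.6 FPKM in 5xFAD and 15.3 to 43.5 FPKM in WT. Basophil and mast cell markers summed to 13.7 to 45.1 FPKM in 5xFAD and 41.5 to 47.9 FPKM in WT. Of these 10 markers, however, 5 were at 0 in all 6 libraries, among them Mcpt8, Cpa3 and Fcer1a, and Gata2 is also on the endothelial list. Dendritic cell markers summed to 43.1 to 56.4 FPKM in 5xFAD and 36.0 to 38.7 FPKM in WT. The part of these cells in the adaptor genes Tyrobp and Fcer1g was not tested.

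Receptors for the cytokines of NK cells were measured beside the 10 genes. Of 17 such genes 13 were tested and edgeR called 0, with 1 at an unadjusted p under 0.05. This was S1pr1, the sphingosine phosphate receptor of lymphocyte egress, at 24.3, 32.2 and 31.9 FPKM in 5xFAD and 25.1, 52.8 and 56.2 FPKM in WT (log2 fold change -0.76, SE 0.37; adjusted p = 0.403, edgeR). The most abundant of the list were the chemokine receptor gene Cxcr4, at 133 ± 52.8 FPKM in 5xFAD and 101 ± 64.9 FPKM in WT (SD, n = 3 each), and Il2rg, the shared gamma chain of the IL-2 and IL-15 receptors. Il2rg had 64.0, 36.1 and 42.9 FPKM in 5xFAD and 30.8, 22.9 and 29.2 FPKM in WT. The genotypes did not overlap in FPKM for Il2rg, but in CPM 5xFAD replicate 2, at 229, lay below WT replicate 3, at 262 (adjusted p = 0.465, edgeR). Il2rb, the receptor chain through which IL-15 sustains NK cells, was chosen after its values were seen. It had 0, 2.96 and 2.32 FPKM in 5xFAD and 5.72, 3.93 and 5.85 FPKM in WT, without overlap, as for 17.4% of all tested genes. Its log2 fold change was -1.63 (SE 1.21; adjusted p = 0.657, edgeR). In fragments the Il2rb genotypes nearly met, at 0, 15 and 12 in 5xFAD and 30, 16 and 20 in WT.

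Ligands that NK receptors read on other cells were abundant. Of 16 listed ligand genes 11 were tested and edgeR called 0, with 2 higher in 5xFAD at an unadjusted p under 0.05. H2-T23, which encodes Qa-1, the ligand of the CD94 and NKG2A pair, had 112, 37.9 and 77.6 FPKM in 5xFAD and 37.6, 33.4 and 23.9 FPKM in WT. In FPKM each 5xFAD library lay above each WT library, but in CPM 5xFAD replicate 2, at 243, lay below WT replicates 1 and 2, at 292 and 273 (log2 fold change 1.06, SE 0.42; adjusted p = 0.322, edgeR). Clec2i, a C-type lectin ligand of the NKR-P1 receptors, had 25.3, 9.52 and 10.7 FPKM in 5xFAD and 4.27, 13.7 and 0 FPKM in WT (log2 fold change 2.04, SE 0.96; adjusted p = 0.396, edgeR). B2m, the light chain of MHC class I, averaged 321 ± 88.7 FPKM in 5xFAD and 191 ± 24.5 FPKM in WT (SD, n = 3 each; edgeR adjusted p = 0.447). H2-K1, a heavy chain, averaged 304 ± 76.6 FPKM in 5xFAD and 219 ± 47.7 FPKM in WT (SD, n = 3 each; edgeR adjusted p = 0.716), and close copies among MHC genes make its value uncertain. The loci of H2-T23, Clec2i and B2m also hold other listed genes, so their values are uncertain as well. The ligands of NKG2D were sparse, with H60b and H60c at 0 in all 6 libraries.

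Over the 6 lists for NK receptors, granules, transcription factors, cytokines, cytokine receptors and ligands, 110 genes other than the 10 were listed and 56 were tested. EdgeR called 0 of the 56, and DESeq2 called 0 of the 52 for which it gave an adjusted p. By edgeR 3 were higher and 2 lower at an unadjusted p under 0.05, against 8.43% and 3.55% of all tested genes. Of the 110, tested or not, 85 were detected in at least 1 library. Among these 85, 7 (8.24%) had at least 0.5 counts in every 5xFAD library and under 0.5 in every WT library. They were Cd247, Crtam, Cst7, Il12rb1, Il12rb2, S1pr5 and Tnf, all below the testing minimum, and 0 genes had the opposite form. Over all 13289 detected genes the shares were 4.27% for presence in 5xFAD alone and 0.166% for presence in WT alone, so the direction of these 7 was that of the table as a whole. None of the 10 genes had either form. The part of the larger number of genes detected in the 5xFAD libraries was not tested.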

How the data were processed

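RNA of 6 lung B cell libraries was sequenced after ribosomal RNA depletion, as the labels' protocols state. Tools listed in the submitters' processing notes were HISAT2 2.0.4, cutadapt 1.9.3, Cuffdiff and Cufflinks, with GRCm38 and mm10 as builds; no order or role is listed. The deposited table gives FPKM and estimated counts per gene and sample, per the file headers; 1 row was not used here, and no source used here gives the annotation release. Starts of loci were raised by 1. Genes that share a locus may share reads.

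Rows that shared a symbol were summed. The 22564 rows then gave 22481 genes. Estimated counts were rounded and tested with edgeR 4.0.16 (quasi-likelihood, TMM factors, genotype as the only term, R 4.3.3) over the 9651 genes that averaged 1 FPKM or more, with Benjamini-Hochberg adjustment. SEs were derived from the F statistic (fold change on the log2 scale divided by √F). Alternatives used DESeq2 1.42.0, limma 3.58.1 on log2(FPKM + 1) or log2(FPKM + 0.1), other factors and filters, a replicate block and libraries left out. Code was tested on simulated data. Total counts ran from 628581 to 782297 per library. The step of a library was the value that a single fragment most often took in its count column, and 94.0% to 97.3% of values of at least 0.5 steps were whole multiples within 0.05. No library pair agreed within sampling noise (chi-square per degree of freedom 6.72 to 20.1 over 15 pairs).

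The 10 genes and the other lists were chosen with earlier results of these data known. Named from a list were up to 3 genes at an unadjusted p under 0.05, the 2 most abundant, and Cd79a, Ms4a1, Cd3e, Cd3d, Tbx21, Klrb1c and Ifng always; some genes that this rule names are not reported here. Single values are given only for genes of lists on NK, T, B and group 2 innate lymphoid cells, and B cell markers are mostly given as a sum. Lists were described by counts and sums, with no test of a list.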

Additional observations from a re-analysis of the deposited data

How the results depend on the processing

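None of the 6 tested genes was called under any of the 16 alternatives that tested it; filterByExpr kept none of them, and DESeq2 gave no adjusted p for Gzma and Gzmb. Their directions were not fixed, however, and 19 of 85 refitted values had the other sign. With limma on log2(FPKM + 1) the differences that changed sign were 0.031 for Ncr1, 0.089 for Gzmb and 0.82 for Gata3. With log2(FPKM + 0.1) they were 0.85 for Ncr1, 0.79 for Nkg7, -0.41 for Gzma, 0.85 for Gzmb and 1.90 for Gata3. Ccl3, which is not among the 6, also changed sign there, to 0.70. With a replicate block the log2 fold changes that changed sign were 0.44 for Ncr1, 0.011 for Nkg7, 0.43 for Gzmb and 0.62 for Gata3. The block called 26 genes of the whole table. Deviations of same-numbered libraries correlated at -0.016 to 0.020, so no pairing by number was seen. Counting error in such shallow libraries could hide a pairing, so these values cannot exclude it.

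Leaving out 1 library at a time moved the log2 fold change from -1.73 to 2.53 for Ncr1, -1.60 to 0.78 for Nkg7, -3.94 to 2.66 for Gzma, -1.05 to 1.57 for Gzmb, -0.49 to 1.96 for Ccl5 and -1.04 to 2.15 for Gata3. For Srgn it moved from -0.54 to 0.13, for Ets1 from -0.10 to 0.27, for Klf2 from -0.72 to 0.048, for Ccl3 from -1.27 to 0.42 and for Cxcr4 from -0.28 to 0.89. The number of the 10 genes with a positive difference moved from 4 to 8, against 7 with all libraries, and the log2 difference of their summed FPKM from -0.00 to 0.75, against 0.33 with all libraries and -0.35 in CPM.

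Across all tested genes the main settings called 11, and 3 to 75 with 1 library left out, 62 by DESeq2, 27 with upper-quartile factors, 62 without a filter, 7 after edgeR's filterByExpr, and 0 by limma with either pseudocount (1148 and 1118 at an unadjusted p under 0.05 over 9651 genes). The causes were not tested. Chosen after seeing the data, whole fragments in place of rounded counts changed no sign and no call among the 6, and the summed locus changed neither for Gata3.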
